A study of Rattus norvegicus with 64 samples.

Results

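Matricellular proteins sit in the extracellular matrix without building its fibres, and bind cell surface receptors, growth factors, collagen and proteases there. They are sparse in most resting adult tissues and appear in wounds, where provisional matrix is laid down, cells migrate in and scar is remodelled. The 10 genes described here were chosen by name as those of wound matrix, namely Fn1, Spp1, Postn, Tnc, Tnn, Thbs1, Thbs2, Sparc, Ccn1 and Ccn2. Fn1, which encodes fibronectin, is also a structural glycoprotein of provisional matrix. All 10 had a probe on the array, out of 15715 genes that could be named from the transcript each probe was designed on. The 10 genes were read by 12 probes, since Fn1 and Tnn had 2 probes each. The brighter probe stands for the gene unless the dimmer one is named.

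The samples were walls of rat bladders repaired with a graft after hemicystectomy, the removal of part of the bladder. The graft was a piece of bladder acellular matrix (BAM), a rat bladder stripped of its cells. It was implanted either bare, called BAM only, or seeded with adipose derived stem cells (ADSCs) cultured from retroperitoneal fat of male Wistar rats and used at the third passage. The sources differ on whether these were the recipient's own cells or those of syngeneic donors. Both grafts thus shared the surgery and the matrix, and all animals were male Wistar rats, the fat donors being 10 weeks old and the age of the recipients not being given in the sources used here. The reconstructed wall was taken 7, 30, 90 or 180 days after surgery, which gives 8 groups with 8 arrays each and 64 arrays in all, 1 array per rat. No unoperated bladder was among these arrays, so the levels below are set only against other grafted walls. RNA of a whole wall mixes cell types, and fewer cells of a type cannot be told apart from less RNA per cell.

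Each group lay on a slide of its own, and what belongs to the slide cannot be told apart from what belongs to the group. The 32 arrays of days 7 and 30 were scanned on 1 date and the 32 of days 90 and 180 on another, so day 90 against day 30 is also 1 scan against the other. Median spot background was 42 to 52 on the arrays of days 7 and 30 and 99 to 366 on those of days 90 and 180. The share of gene spots well above background was 73.3 to 95.6% and 35.5 to 64.6%, respectively. The BAM only group of day 90 stood apart with a mean 75th percentile of 2454, against 1104 to 1460 in the other groups. Of the lists that mark bladder tissue, all 7 smooth muscle genes and 7 of 8 urothelial genes had a named probe, and each was well above background on at least 1 array of every group.

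Levels are log2 processed signal minus the 75th percentile of gene spots of the same array, so that 1 unit is a doubling. A level describes 1 probe across arrays and is not set against the level of another probe. A gene was called where limma's adjusted p was below 0.01 and the fold change above 1.5, the thresholds of the study's methods, over all 30367 probes. Gene positions are those of RefSeq on build GRCr8. Signed differences are seeded minus BAM only, or later day minus earlier day.

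The sequence upstream of Ccn1 and Ccn2 is shown because these genes, which encode the related secreted proteins CYR61 and CTGF, varied together across the arrays more closely than any other pair of the 10. Both are well known targets of TEAD transcription factors and their cofactors YAP and TAZ. The lines give the 250 bases before the annotated start, 5′ to 3′ on the strand of the gene, from RefSeq on build GRCr8. Capitals mark GGAATG, the core letters bound by TEAD factors, in either orientation, and TATAAA, the TATA box letters.
Ccn1, chr2:237225690-237225939, minus strand: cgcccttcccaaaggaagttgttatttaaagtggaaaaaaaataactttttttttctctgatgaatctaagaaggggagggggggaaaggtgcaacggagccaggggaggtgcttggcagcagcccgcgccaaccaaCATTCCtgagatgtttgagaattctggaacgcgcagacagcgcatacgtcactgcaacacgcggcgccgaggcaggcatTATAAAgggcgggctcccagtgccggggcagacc
Ccn2, chr1:22624615-22624864, minus strand: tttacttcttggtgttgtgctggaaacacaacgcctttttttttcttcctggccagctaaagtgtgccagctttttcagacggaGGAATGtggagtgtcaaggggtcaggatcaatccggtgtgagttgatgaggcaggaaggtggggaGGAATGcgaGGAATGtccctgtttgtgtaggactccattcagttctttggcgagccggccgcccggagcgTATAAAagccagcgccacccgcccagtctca
The window of Ccn2 held GGAATG 3 times, starting between 166 and 92 bases before the start. That of Ccn1 held it once in the other orientation, 113 bases before the start. Among 33469 windows of this length, 12.1% held the letters at least once on either strand. TATAAA began 34 bases before the start of Ccn1 and 31 before that of Ccn2, and 12.9% of all windows held it. GTCTG, which SMAD proteins bind, was in 42.9% of all windows, 2 times in that of Ccn1 and once in that of Ccn2. Neither the AP-1 letters TGANTCA, found in 6.34% of all windows, nor the ETS letters CCGGAA, found in 12.6%, nor the CArG box of serum response factor, found in 1.5%, were in either window. Windows were on hand for 8 of the 10 genes, and those of Thbs1, Sparc and Tnn held GGAATG once each. The search covered both strands, no match overlapped another, and a match describes letters only.

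More of the 10 genes were called between days than between grafts, and most of the calls lay between day 30 and day 90. From the earlier to the later of them, 5 of 10 genes were called lower with BAM only, Spp1, Postn, Fn1, Tnn and Sparc, and 4 of 10 with seeded grafts, the first 4 of these. None was called higher. Sparc, however, was saturated on 7 of 8 BAM only arrays of each of these days. Its unscaled median signal there was 65470 and 65510, so that its direction is not settled. Of all probes, 9.49% were called lower with BAM only and 10.3% with seeded grafts. Spp1, Postn, Fn1 and Tnn did not overlap between the days in either graft, with all 8 arrays of day 90 below all 8 of day 30, whereas 4.2% and 6.24% of all probes were lower without overlap. The median change of the 10 genes was -0.87 with BAM only and -0.67 with seeded grafts, while that of all probes was 0.30 and 0.11.

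**Figure D1:**
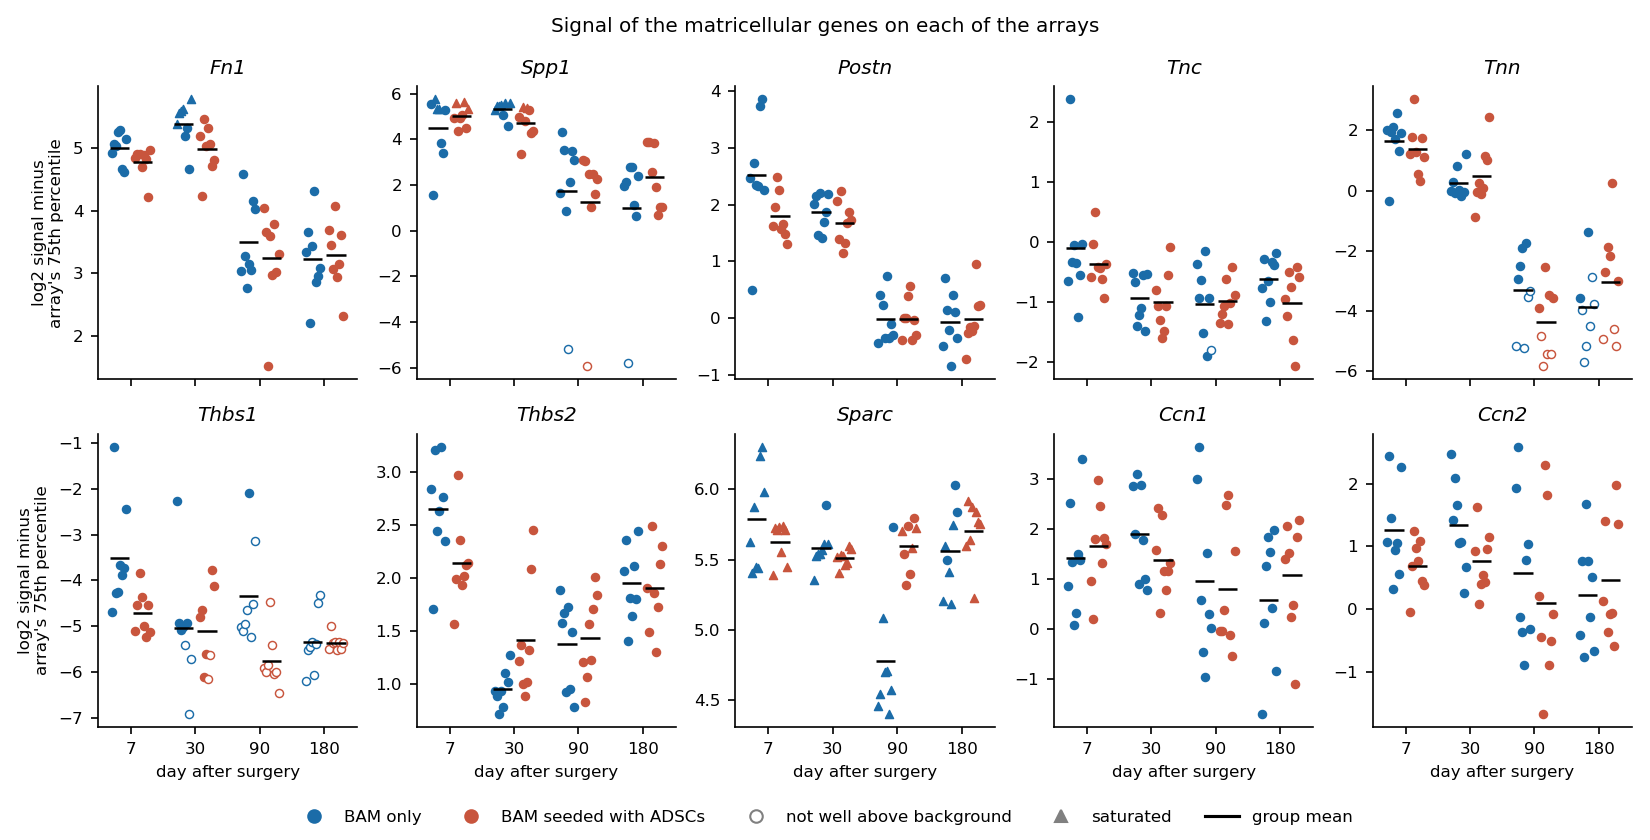
Level of each of the 10 genes (y axis, log2 signal minus the array's 75th percentile) on each array by day after surgery (x axis), for BAM only (blue) and BAM seeded with ADSCs (red), 8 arrays a group. Black lines are group means, open circles are arrays on which the probe was not well above background and triangles are saturated arrays. The group means of Fn1, Spp1, Postn and Tnn are lower at days 90 and 180 than at days 7 and 30, and Sparc is saturated on 54 of 64 arrays.

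Spp1 (chr14:5613569-5620695) encodes osteopontin, a secreted phosphoprotein that binds integrins and CD44 and is made in quantity by macrophages in injured tissue. At day 7 its level ran from 4.34 (median 5.01) to 5.63 with seeded grafts and from 1.55 (median 5.30) to 5.75 with BAM only. At day 30 it ran from 3.37 (median 4.88) to 5.40 and from 4.59 (median 5.45) to 5.61. On 14 of these 32 early arrays the probe was saturated, so that the true signal there was at least as high. At day 90 the level ran from -5.92 (median 2.37) to 3.08 with seeded grafts and from -5.16 (median 2.61) to 4.31 with BAM only. At day 180 it ran from 0.68 (median 2.26) to 3.89 and from -5.77 (median 2.05) to 2.79. Every array of day 90 was below every array of day 30 in the same graft, while the grafts overlapped at each day. The fall from day 30 to day 90 was 12-fold with BAM only (log2 difference -3.58 ± 0.96 SE, adjusted p = 0.00106) and 11.1-fold with seeded grafts (-3.48 ± 0.96, adjusted p = 0.00233). Without BAM only replicate 5 of day 90 the difference with BAM only was -2.60 and was still called. The call in seeded grafts was lost without seeded replicate 3 of day 90, at -2.45 (adjusted p = 0.0163).

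In 3 late groups 1 array had almost no Spp1 signal, and on each of these the probe was not well above background. They were seeded replicate 3 at day 90 (-5.92), BAM only replicate 5 at day 90 (-5.16) and BAM only replicate 3 at day 180 (-5.77). The next lowest arrays of these groups were at 1.02, 0.86 and 0.64. The mean level of 9 macrophage genes was the lowest of the group on the same 3 arrays, at -1.50, -0.28 and -0.10, against group means of 0.72, 1.06 and 0.63. Fn1 was also lowest of its group on 2 of the 3 arrays, seeded replicate 3 at day 90 (1.52) and BAM only replicate 3 at day 180 (2.21). The part of the mix of cell types in these levels was not tested.

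Fn1 (chr9:80645507-80714200) encodes the ligand of integrin α5β1, and its fibrils form the first cell-made scaffold of a wound. Its level ran from 4.22 (median 4.87) to 4.97 with seeded grafts and from 4.61 (median 5.04) to 5.28 with BAM only at day 7. At day 30 it ran from 4.23 (median 5.04) to 5.46 and from 4.66 (median 5.46) to 5.77, with 5 of 8 BAM only arrays saturated. At day 90 it ran from 1.52 (median 3.46) to 4.03 and from 2.77 (median 3.22) to 4.57. The 2 late days overlapped, day 180 running from 2.32 (median 3.30) to 4.07 and from 2.21 (median 3.21) to 4.31. The fall from day 30 to day 90 was 3.68-fold with BAM only (-1.88 ± 0.25 SE, adjusted p = 5.77e-09) and 3.32-fold with seeded grafts (-1.73 ± 0.25, adjusted p = 1.17e-07). The dimmer probe of Fn1, saturated on no array, fell as well, by 5.28-fold (adjusted p = 9.71e-09) and 2.66-fold (adjusted p = 0.000369).

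Postn (chr2:140677774-140709304) encodes periostin, a fibroblast protein that binds collagen and takes part in collagen crosslinking. With seeded grafts its level ran from 1.31 (median 1.64) to 2.48 at day 7, from 1.15 (median 1.70) to 2.24 at day 30 and from -0.38 (median -0.01) to 0.56 at day 90. With BAM only it ran from 0.50 (median 2.40) to 3.85, from 1.41 (median 1.94) to 2.20 and from -0.44 (median -0.20) to 0.74. Days 90 and 180 overlapped widely, the means at day 180 being -0.01 ± 0.49 (SD, n = 8) with seeded grafts and -0.07 ± 0.50 with BAM only. The fall from day 30 to day 90 was 3.71-fold with BAM only (-1.89 ± 0.26 SE, adjusted p = 1.32e-08) and 3.24-fold with seeded grafts (-1.70 ± 0.26, adjusted p = 4.58e-07). The probe was well above background on all 64 arrays and saturated on none.

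Tnn (chr13:74852586-74919789) encodes tenascin-W, a tenascin of developing bone and of the stroma of tumours. Its level ran from 0.32 (median 1.25) to 3.03 with seeded grafts and from -0.34 (median 1.94) to 2.57 with BAM only at day 7. At day 30 it ran from -0.89 (median 0.15) to 2.46 and from -0.17 (median 0.00) to 1.21, and at day 90 from -5.84 (median -4.37) to -2.53 and from -5.22 (median -3.13) to -1.74. The probe was well above background on all 32 early arrays, on 4 of 8 arrays of each graft at day 90 and on 5 and 2 of 8 at day 180. The difference from day 30 to day 90 was -4.86 ± 0.58 SE with seeded grafts (adjusted p = 7.97e-10) and -3.55 ± 0.58 with BAM only (adjusted p = 4.43e-07), and no fold is given because the level at day 90 was unmeasured on 4 of 8 arrays of each graft. The 2 falls were not shown to differ (difference -1.31 ± 0.82, adjusted p = 0.21). The dimmer Tnn probe was well above background on all early arrays and on no late one, so that its signal at day 90 was at least 8.76-fold lower than at day 30 with seeded grafts (adjusted p = 1.92e-09) and at least 2.33-fold lower with BAM only (adjusted p = 0.00213). For these bounds each array of day 90 was set to the lowest signal called well above background on it, or its own signal where higher.

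**Figure D2:**
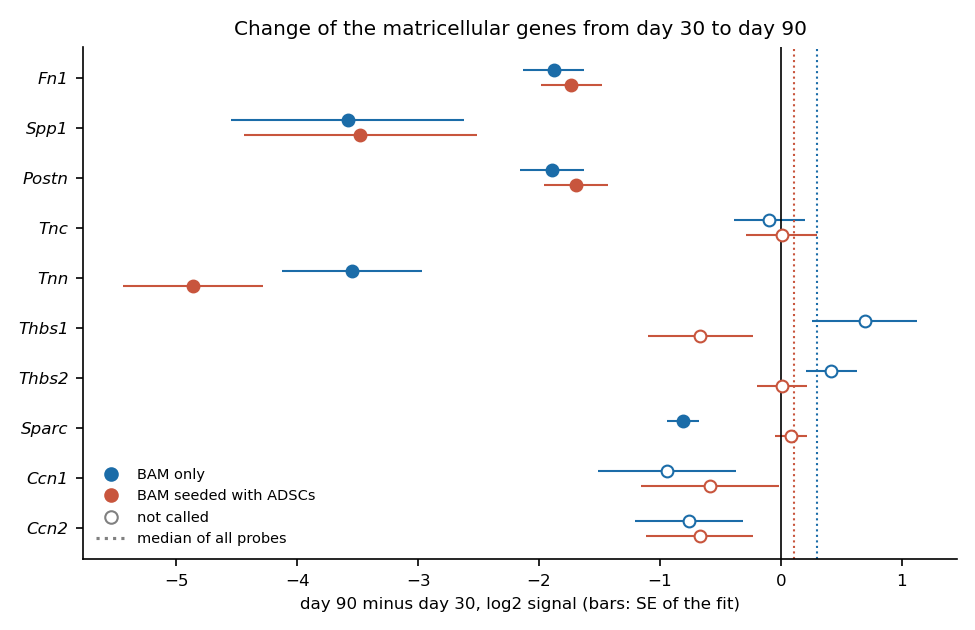
Difference between day 90 and day 30 (x axis, log2 signal) of each of the 10 genes (y axis) for BAM only (blue) and BAM seeded with ADSCs (red), with the SE of the fit over 64 arrays as bars. Filled points were called and dotted lines are the medians of all probes, 0.30 and 0.11. Fn1, Spp1, Postn and Tnn lie to the left of -1.6 in both grafts. Sparc was called with BAM only, where 7 of 8 arrays of each day were saturated and its direction is not settled.

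Between day 90 and day 180 the levels of these 4 genes were not called different in either graft. With BAM only 1 of 10 genes was called, Sparc, which was higher, and with seeded grafts 0 of 10, where 2 had an unadjusted p below 0.05. Of all probes, 9.39% were called with BAM only and 4.14% with seeded grafts, and 5.21% were called higher with BAM only. The median change of the 10 genes was -0.32 with BAM only and 0.33 with seeded grafts, beside -0.24 and 0.21 for all probes. With day 180 in place of day 90, a comparison chosen after seeing the data, the falls from day 30 with BAM only were -4.30 for Spp1 (adjusted p = 0.000102), -1.94 for Postn (7.11e-09), -2.15 for Fn1 (1.62e-10) and -4.12 for Tnn (1.57e-08). With seeded grafts Postn (-1.69), Fn1 (-1.69) and Tnn (-3.51) were called, and Spp1 (-2.37) was not, with an adjusted p of 0.0304. At that distance 13.5% and 10.5% of all probes were called lower.

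Markers of other cell types moved between the same days. Of 9 macrophage genes, 7 were called lower at day 90 than at day 30 with BAM only and 3 with seeded grafts, with a median change of -1.02 and -0.57. Of 7 smooth muscle genes, 5 and 6 were called higher, with a median change of 0.98 and 1.35. Of 8 fibroblast genes, 3 with BAM only (Col1a1, Col3a1 and Fap) and 1 with seeded grafts (Fap) were called lower, and Dcn was called higher with seeded grafts. Of 6 skeletal muscle genes, 5 were called higher with BAM only and 1 with seeded grafts, but 3 of the 5 (Myh1, Myh2 and Myh4) were well above background on 0 of 8 BAM only arrays of day 90. Col1a1 and Col3a1 were saturated on all 8 BAM only arrays of day 30 and on 7 of 8 of day 90, so that their direction is not settled. C1qb, among the 7 macrophage genes called with BAM only, was saturated on 7 of 8 arrays of day 30 and 4 of 8 of day 90. Its unscaled median signal was 61891 and 63054, so that its direction is not settled either. Across all probes, 35.2% and 17.8% were called higher, and with BAM only this came to 10688 probes higher and 2883 lower. With quantile normalization it came to 3947 higher and 3718 lower, and Spp1, Postn, Fn1 and Tnn were called lower there too in both grafts. No macrophage, fibroblast or smooth muscle gene was below background on all arrays of a group. The part of these cell types in the falls of the 4 genes was not tested.

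Both thrombospondin genes were called lower at day 30 than at day 7 with BAM only, and Thbs2 alone with seeded grafts. Thbs2 (chr1:64343523-64372918), an inhibitor of vessel growth made by fibroblasts and a shaper of collagen fibrils, had a level of 1.56 (median 2.07) to 2.97 with seeded grafts and 1.71 (median 2.70) to 3.23 with BAM only at day 7. At day 30 it ran from 0.89 (median 1.26) to 2.45 and from 0.72 (median 0.93) to 1.27. With BAM only the days did not overlap, whereas with seeded grafts 6 of 8 arrays of day 30 lay below all of day 7. The fall was 3.23-fold with BAM only (-1.69 ± 0.21 SE, adjusted p = 6.93e-09) and 1.65-fold with seeded grafts (-0.72 ± 0.21, adjusted p = 0.00844). The call in seeded grafts was lost in 12 of 16 fits that left out 1 array, with values from -0.87 to -0.60. The difference between the 2 falls, 0.97 ± 0.29, did not pass (adjusted p = 0.0365).

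From day 30 on Thbs2 was not called between neighbouring days. Its means were 1.43 ± 0.41 (SD, n = 8) and 1.38 ± 0.42 at day 90 with seeded grafts and BAM only, and 1.90 ± 0.40 and 1.95 ± 0.36 at day 180. Set against day 30 directly, day 180 was higher with BAM only by 1.00 ± 0.21 SE (adjusted p = 3.28e-05), and with seeded grafts the difference was 0.48 ± 0.21 (adjusted p = 0.0406).

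Thbs1 (chr3:125510250-125525402) encodes thrombospondin 1, a platelet protein and an activator of latent TGF-β. Its signal was weak, well above background on 28 of 64 arrays, of which 1 was at day 90 and 0 at day 180. At day 7 it ran from -5.23 (median -4.77) to -3.84 with seeded grafts and from -4.68 (median -3.81) to -1.08 with BAM only. At day 30 it ran from -6.15 (median -5.21) to -3.77 and from -6.92 (median -5.05) to -2.27. With BAM only 7 of 8 arrays of day 30 lay below all of day 7, a difference of -1.53 ± 0.43 SE (adjusted p = 0.00698), and with seeded grafts the difference was -0.39 ± 0.43 (adjusted p = 0.504). At day 30 the probe was well above background on 5 of 8 BAM only and 6 of 8 seeded arrays, so no fold is given. With the normexp background correction the fall with BAM only was -0.83 (adjusted p = 0.0162). Its call was lost in 9 of 16 fits without 1 array, with values from -1.93 to -1.19. Of 4 platelet genes, 2 were called lower with BAM only over the same days, Ppbp and Gp1bb, and 0 with seeded grafts. Of the other lists, 5 of 8 fibroblast, 4 of 6 endothelial and 4 of 5 neutrophil genes were called lower with BAM only, and 1 of each with seeded grafts. The part of these cell types in the falls of Thbs1 and Thbs2 was not tested.

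Between day 7 and day 30, then, 2 of 10 genes were called lower with BAM only and 1 of 10 with seeded grafts, against 4.21% and 1.4% of all probes. Thbs2 with BAM only was the 1 gene without overlap, against 3.52% of all probes, and with seeded grafts it was 0 of 10, against 2.32%. None of the 10 was called higher, against 4.44% and 6.67% of all probes. The median change of the 10 genes was -0.43 and -0.29, beside -0.06 and 0.27 for all probes. Tnc with BAM only (-0.83 ± 0.29, adjusted p = 0.0366) and Tnn (-1.40 ± 0.58, adjusted p = 0.0811) did not pass.

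Tnc (chr5:82391340-82476197) encodes tenascin-C, which loosens the adhesion of cells to fibronectin. Its level ran from -0.93 (median -0.41) to 0.51 with seeded grafts and from -1.25 (median -0.34) to 2.38 with BAM only at day 7. At later days the medians of the 6 groups lay between -1.07 and -0.51. BAM only replicate 2 of day 7 was far above the other arrays, the next being -0.03. No comparison of Tnc between days or grafts was called.

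Ccn1 (chr2:237222730-237225689) and Ccn2 (chr1:22621498-22624614) encode secreted proteins that bind integrins and heparan sulphate, drive adhesion of fibroblasts and, in the case of Ccn2, matrix synthesis. The level of Ccn1 ran from 0.20 (median 1.75) to 2.98 with seeded grafts and from 0.09 (median 1.36) to 3.41 with BAM only at day 7, and from -0.53 (median 0.17) to 2.68 and from -0.96 (median 0.45) to 3.64 at day 90. That of Ccn2 ran from -0.04 (median 0.73) to 1.25 and from 0.31 (median 1.06) to 2.44 at day 7, and from -1.67 (median -0.27) to 2.31 and from -0.89 (median 0.32) to 2.59 at day 90. Arrays of 1 group thus differed by up to 4.59 units in Ccn1 and 3.98 in Ccn2, and all groups overlapped. Neither gene was called in any comparison, and the fall from day 30 to day 90 was -0.94 ± 0.57 and -0.76 ± 0.44 with BAM only and -0.58 ± 0.57 and -0.67 ± 0.44 with seeded grafts.

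Between the grafts at most 2 of 10 genes were called at a day, beside 1.67 to 12.5% of all probes. At day 7, 0 of 10 genes were called between the grafts, where 3 had an unadjusted p below 0.05, against 7.73% of all probes. At day 30, 0 of 10 were called, where 1 had an unadjusted p below 0.05, against 1.67%. At day 90, 2 of 10 were called, Sparc and Thbs1, against 12.5%, and at day 180, 0 of 10, none of them with an unadjusted p below 0.05, against 2.44%. The median difference of the 10 genes at days 7, 30, 90 and 180 was -0.27, -0.13, -0.21 and 0.10, beside -0.16, 0.11, -0.27 and 0.06 for all probes. No gene of the 10 separated the grafts without overlap at any day.

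**Figure D3:**
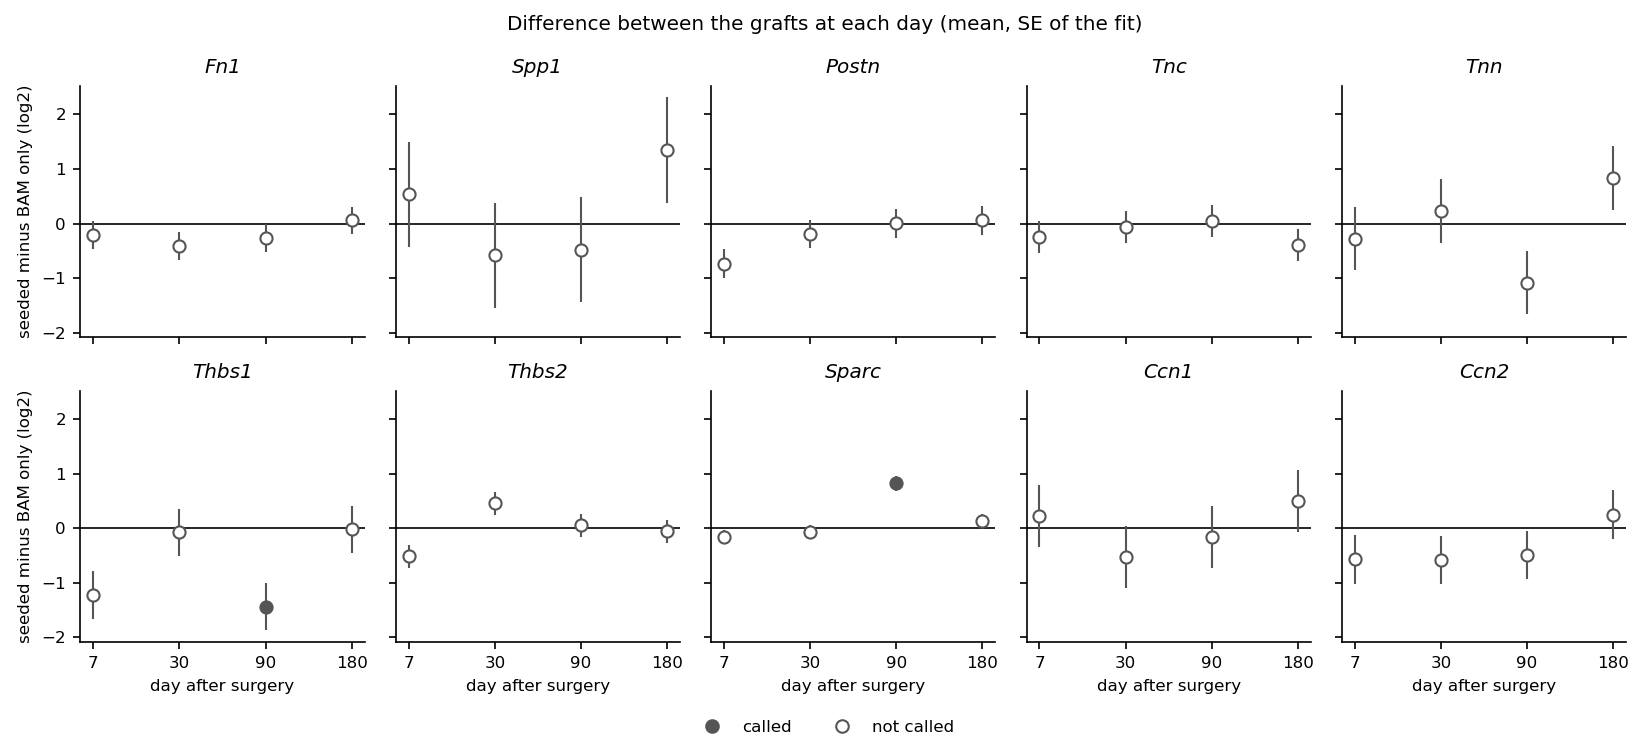
Difference between BAM seeded with ADSCs and BAM only (y axis, log2) at each day (x axis) for the 10 genes, with the SE of the fit over 64 arrays as bars and 8 arrays a group. Filled points were called, which were Thbs1 (-1.43) and Sparc (0.82) at day 90.

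The 3 genes with the lowest p at day 7 were all lower with seeded grafts and missed the threshold. Thbs1 differed by -1.22 ± 0.43 SE (adjusted p = 0.0416), Postn by -0.73 ± 0.26 (adjusted p = 0.0439) and Thbs2 by -0.51 ± 0.21 (adjusted p = 0.0797). Without BAM only replicate 2 Postn was called at -1.02 (adjusted p = 0.001). Of the other lists at day 7, 5 of 7 urothelial genes were called higher with seeded grafts, with a median difference of 2.06. Called lower were 1 of 8 fibroblast genes (Pdgfrb), 2 of 6 endothelial genes (Kdr and Vwf) and 1 of 5 neutrophil genes (Csf3r). The median differences of these 3 lists were -0.22, -0.62 and -1.43, beside -0.16 for all probes. Of all 30367 probes, 640 were called higher and 1707 lower at that day. The part of these cell types in the differences of Thbs1, Postn and Thbs2 was not tested.

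Thbs1 at day 90 was called lower with seeded grafts (-1.43 ± 0.43 SE, adjusted p = 0.0098). It ran from -6.46 (median -5.96) to -4.48 with seeded grafts and from -5.23 (median -4.80) to -2.10 with BAM only, and 7 of 8 seeded arrays lay below all BAM only arrays. It was well above background on 0 of 8 seeded and 1 of 8 BAM only arrays, so neither group was measured on most arrays and no fold is given. With the normexp background correction it was -0.085 (adjusted p = 0.892), and the call was lost in 11 of 16 fits without 1 array. Mean spot background was 108 in the seeded group and 345 in the BAM only group, and its part in this call was not tested.

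Sparc (chr10:40017065-40038816) encodes osteonectin, which binds collagen and calcium and is abundant in fibroblasts. Its probe was saturated on 54 of 64 arrays, so its level mostly restates the upper limit of the scanner after scaling. The scaled level ran from 5.32 (median 5.64) to 5.79 with seeded grafts and from 4.40 (median 4.63) to 5.73 with BAM only at day 90, a difference of 0.82 ± 0.13 SE (adjusted p = 1.46e-06). The upper limit itself, on the same scale, averaged 5.92 and 4.82 in these groups. Sparc lay on average 0.32 below that limit with seeded grafts, where 3 of 8 arrays were saturated, and 0.04 below it with BAM only, where 7 of 8 were. Unscaled, the median signal was 57260 with seeded grafts and 65510 with BAM only. The direction of the difference at day 90 is therefore not settled by these arrays, and with quantile normalization it was -0.038 (adjusted p = 0.669).

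The same holds for the other calls of Sparc, which all rest on the BAM only group of day 90. Smooth muscle genes Myh11, Actg2 and Tagln (3 of 7) and the fibroblast genes Dcn and Col1a1 (2 of 8) were called between the grafts at that day too, each saturated on 7 or 8 of 8 BAM only arrays, so that their direction is not settled. Cdh5 (1 of 6 endothelial genes) was called lower with seeded grafts and was saturated on 0 arrays. Sparc was lower at day 90 than at day 30 (-0.81 ± 0.13 SE, adjusted p = 4.58e-07) and higher at day 180 than at day 90 (0.79 ± 0.13, adjusted p = 3.76e-06) with BAM only. Its graft difference changed by 0.89 ± 0.19 from day 30 to day 90 (adjusted p = 0.000334) and by -0.69 ± 0.19 from day 90 to day 180 (adjusted p = 0.00526). Between day 30 and day 180, without that group, the difference with BAM only was -0.016 ± 0.13 (adjusted p = 0.923). Sparc was the 1 gene of 10 whose graft difference changed between days 30 and 90, against 9.99% of all probes, and between days 90 and 180, against 9.79%. Between days 7 and 30 it was 0 of 10, where 1 had an unadjusted p below 0.05, against 0.985%.

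**Figure D4:**
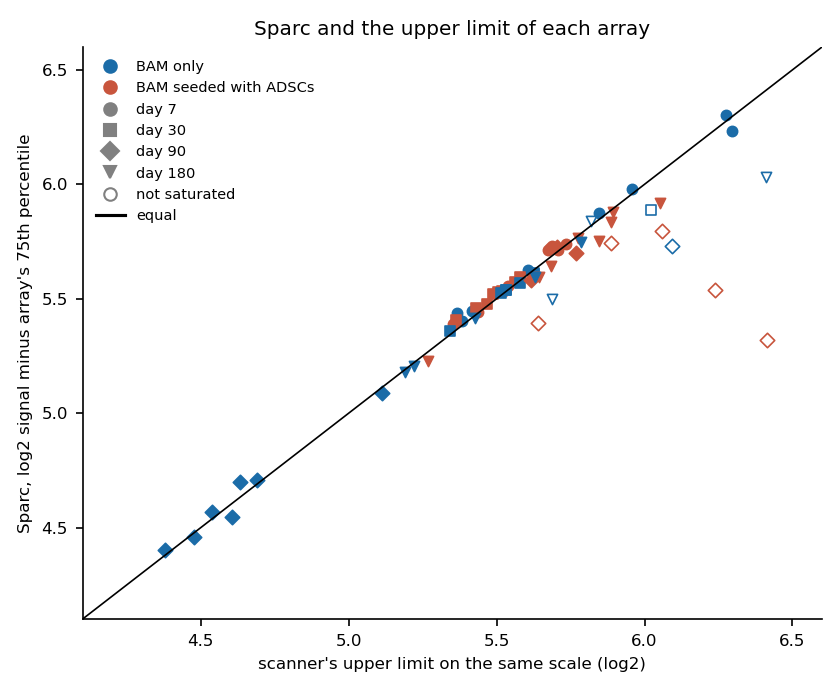
Level of Sparc (y axis, log2 signal minus the array's 75th percentile) against the scanner's upper limit on the same scale (x axis) on each of 64 arrays, blue for BAM only and red for BAM seeded with ADSCs, with a shape for each day. Filled points are saturated and the line marks equality. Saturated arrays lie on or close to the line, and the 7 saturated BAM only arrays of day 90 are at its lower end.

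Across arrays of the same group the 10 genes varied mostly apart. Over the deviations of 64 arrays from their group means, Pearson's r exceeded 0.5 in 3 of 45 pairs and ranged from -0.29 to 0.75. The arrays of a group share a slide, and each array has its own scaling and mix of cells, so r is given as a description. For Ccn1 and Ccn2 r was 0.75 (Spearman's rho 0.71), positive within each of the 8 groups (0.33 to 0.94), and 0.73 without the 2 arrays farthest in Ccn1. For Spp1 and Fn1 r was 0.70 (rho 0.71), again positive in each of the 8 groups (0.37 to 0.96), and 0.67 without the 2 arrays farthest in Spp1. Tnc and Thbs1 reached 0.53 (rho 0.40), which fell to 0.42 without the 2 arrays farthest in Tnc. Tnc and Thbs2 had an r of 0.31 (rho 0.57), which rose to 0.72 without the 2 arrays farthest in Tnc, and was -0.04 over the arrays of days 7 and 30 and 0.82 over those of days 90 and 180.

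**Figure D5:**
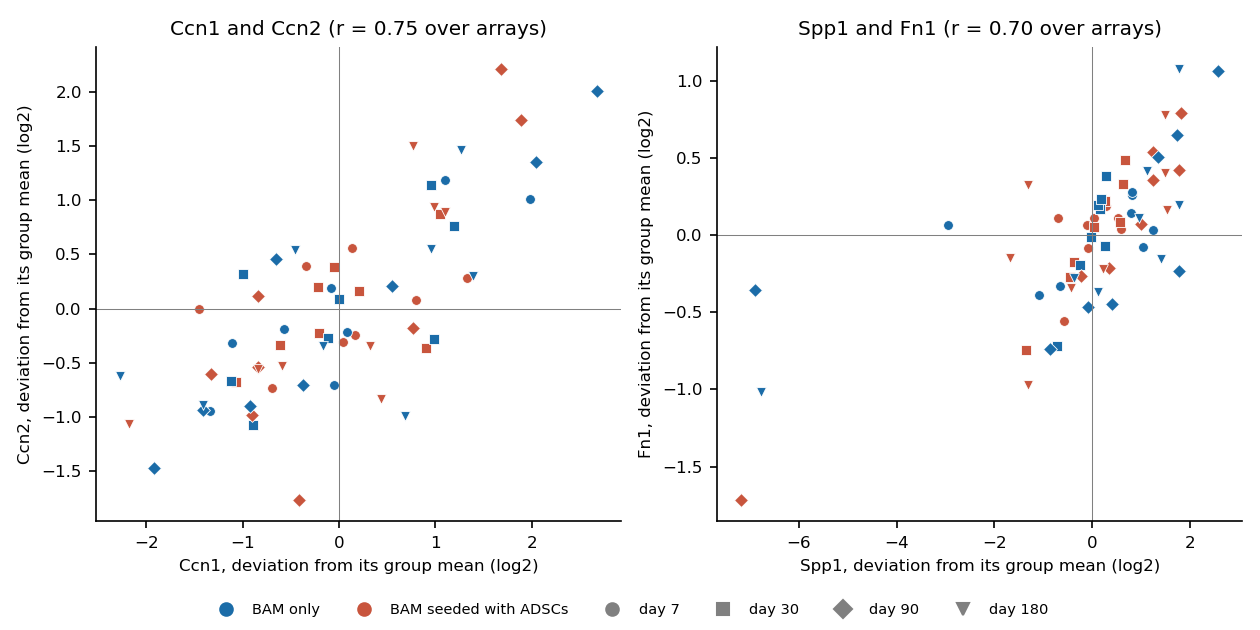
Deviation of each array from its group mean (both axes, log2) for Ccn1 against Ccn2 (left) and Spp1 against Fn1 (right), 64 arrays, colours for the grafts and shapes for the days. Both clouds rise together (r = 0.75 and 0.70), and 3 arrays of days 90 and 180 lie far to the left in Spp1.

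Among 11146 genes well above background on at least 0.5 of the arrays, those that varied most like Spp1 were Mmp12, the macrophage elastase (r = 0.97, rho 0.93, and 0.94 without the 2 farthest arrays), and Gpnmb, a glycoprotein of macrophages and other phagocytic cells (r = 0.93, rho 0.90, and 0.89). With the mean of 9 macrophage genes Spp1 gave r = 0.79 (rho 0.67, and 0.63 without the 2 farthest arrays), and Fn1 gave 0.71 (rho 0.56, and 0.59). Over the arrays of days 7 and 30 these r were 0.46 and 0.38, and over those of days 90 and 180 they were 0.83 and 0.77. The next highest marker lists were those of platelets (0.54 for Spp1 and 0.44 for Fn1) and fibroblasts (0.48 and 0.46). Among the genes nearest to Fn1 was Sfrp4, a secreted Wnt antagonist (r = 0.84). Those nearest to Ccn1 were Ccn2 and Nr4a1, an immediate early nuclear receptor (r = 0.74), and the gene nearest to Ccn2 was Ccn1. Thbs2 was nearest to Col16a1 (r = 0.77) and Sparc to Timp2 and Bgn (r = 0.95 for both), of which the last pair shares the saturation of its arrays with scaling.

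Other genes of the matricellular families were read from a list of 32, of which 27 had a named probe. Between the grafts 1 of 27 was called at day 7, Tgfbi, which encodes a collagen-binding protein induced by TGF-β and was lower with seeded grafts (-0.65 ± 0.18 SE, adjusted p = 0.00658). At day 90 1 was called, Lgals3, or galectin 3, with a scaled difference of 1.05 ± 0.15 and 7 of 8 arrays of each graft saturated. As for Sparc, its means of 5.81 and 4.77 lay near the upper limit of the scanner (5.92 and 4.82), and its direction is not settled. None of 27 was called at days 30 and 180. Of all probes, 7.73% were called between the grafts at day 7, 1.67% at day 30, 12.5% at day 90 and 2.44% at day 180. Between day 7 and day 30, 4 were lower with BAM only and 3 with seeded grafts, against 4.21% and 1.4% of all probes, and 2 and 0 were higher, against 4.44% and 6.67%. Ccn4 (-1.75 and -0.90), Tgfbi (-1.10 and -0.95) and Cthrc1, a collagen triple helix protein of activated fibroblasts (-1.66 and -1.05), were lower in both and were named after their values were seen. Between day 30 and day 90, 6 and 7 were lower, against 9.49% and 10.3% of all probes, and 11 and 5 higher, against 35.2% and 17.8%, so that the share higher was near that of all probes. The 6 with BAM only included Lgals3, saturated on 8 of 8 arrays at day 30 and 7 of 8 at day 90. Its unscaled median signal was 61450 and 63645, so that its direction is not settled there either. Among those lower in both grafts was Cthrc1, which fell again (-1.12 and -1.76). Of the 11 called higher with BAM only, Spock3, Tnr, Spock1, Ibsp and Dmp1 were well above background on at most 1 of 16 arrays, beside the rise in background given above.

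Receptors of these proteins were read from a list of integrins, syndecans, CD36, CD44, CD47 and the LRP receptors, with 15 genes measured. CD44 and integrin α4 are receptors of osteopontin and fibronectin, and CD36 and CD47 of thrombospondin 1. Between day 30 and day 90, 6 of 15 were lower with BAM only and 4 with seeded grafts, against 9.49% and 10.3% of all probes, and 1 and 0 were higher, against 35.2% and 17.8%. Among the 6 was Sdc1, or syndecan 1, saturated on 1 of 8 BAM only arrays of day 30 and 6 of 8 of day 90. Its unscaled median signal on these arrays was 53492 and 63673, so that its direction between these days is not settled. Cd44 (-1.49 ± 0.15 SE and -0.93 ± 0.15) and Cd47 (-0.93 ± 0.13 and -0.74 ± 0.13) did not overlap between the days in either graft, and Itga4 was lower in both (-1.56 and -1.37). Between the grafts, Itgb6, the epithelial subunit of a fibronectin and tenascin receptor, was higher with seeded grafts at day 7 (1.81 ± 0.42, adjusted p = 0.00113) and Lrp6 lower (-0.64 ± 0.18, adjusted p = 0.00624). Syndecan 1 (Sdc1), an epithelial heparan sulphate proteoglycan, was called at day 90 (1.16 ± 0.19, adjusted p = 1.38e-06), but 6 of 8 BAM only arrays and 1 of 8 seeded arrays were saturated. Its unscaled median signal was 53662 with seeded grafts and 63673 with BAM only, so that its direction is not settled either. None of 15 was called at days 30 and 180. The counts between the grafts were thus 2 of 15 at day 7 and 1 of 15 at day 90, against 7.73% and 12.5% of all probes. The genes called between days were named after their values were seen, here and for the regulators.

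Upstream regulators, namely the TGF-β ligands and receptors, TEAD factors and cofactors of the wound response, gave 18 measured genes. Between the grafts Prrx1, a homeobox factor of fibroblasts, was lower with seeded grafts at day 7 (-0.71 ± 0.19 SE, adjusted p = 0.00632), and Tgfb2, named after its value was seen, was lower at day 90 (-1.12 ± 0.28, adjusted p = 0.00178) with 7 of 16 arrays well above background. None of 18 was called at days 30 and 180. The counts between the grafts were thus 1 of 18 at day 7 and 1 of 18 at day 90, against 7.73% and 12.5% of all probes. Tead2 was lower at day 30 than at day 7 in both grafts (-2.01 ± 0.29 and -1.11 ± 0.29), and Tgfbr1, the type I TGF-β receptor, was lower at day 90 than at day 30 in both (-1.57 ± 0.18 and -1.03 ± 0.18). Tead3 was higher at day 90 in both (1.16 ± 0.16 and 0.62 ± 0.16). With seeded grafts Tead1 was called higher from day 7 to day 30 (1.18 ± 0.32) and from day 30 to day 90 (1.16 ± 0.32). It was called in neither step with BAM only (0.30 and 0.54). The counts of 18 between day 7 and day 30 were 0 higher and 2 lower with BAM only and 2 higher and 1 lower with seeded grafts. Of all probes, 4.44% and 6.67% were called higher over these days and 4.21% and 1.4% lower. The counts of 18 between day 30 and day 90 were 2 higher and 2 lower with BAM only and 2 higher and 1 lower with seeded grafts. Of all probes, 35.2% were called higher and 9.49% lower with BAM only, and 17.8% higher and 10.3% lower with seeded grafts.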

How the data were processed

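Total RNA of 64 reconstructed bladder walls, 1 rat per array, had been labelled with Cy3 and hybridised to 1-colour Agilent SurePrint G3 rat arrays. The deposited values were spot intensities from Agilent Feature Extraction 12.0.1.1, which the authors had background-corrected within each array and not normalized between arrays. The deposited table of the whole series was likewise on a linear intensity scale and served as an alternative. On the log2 scale, 61 of 64 columns equalled the processed signal within 0.01 where a value was given. The column of BAM only replicate 1 of day 180, among these, lacked 26650 of 62976 spot values. Those of seeded replicates 2, 3 and 4 of day 7 were lower, with median log2 ratios of -3.30, -3.31 and -3.31.

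Of 62976 spots, 4259 control spots and those with an outlier flag were left out, processed signals were divided by the 75th percentile of each array and put on the log2 scale, and spots of a probe were averaged, giving 30367 probes. RefSeq accessions named 18758 probes for 15715 genes, and the brightest probe stood for a gene. Well above background means that this flag was set for a share of 0.5 or more of the spots of a probe. In R 4.3.3, limma 3.58.1 fitted 8 group means over all 64 arrays (lmFit, eBayes, two-sided, Benjamini-Hochberg over all probes). The study's methods name a two-way analysis of variance on the same factors with the thresholds used here. Each contrast between groups was read from this fit, and a change in the graft difference between days was an interaction term. Figures were drawn in Python 3.11.15 with matplotlib 3.10.9.

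The 10 genes and all gene lists (27 other matricellular genes, 15 receptors, 18 regulators and the cell type markers) were chosen with earlier results of these data known. Beside the 10 genes, the genes named were at most 4 of each list called between grafts at a day, with the largest folds among those well above background on all 16 arrays, and the 2 genes that correlated best with each of the 10. Some results that this rule would name are not reported here. Alternatives were normexp with an offset of 50, quantile normalization, the percentile over detected probes, the deposited series table, outlier spots kept, dim probes left out, only the groups compared, the replicate number as a block, an unmoderated model, a fold above 2, the mean of all probes of a gene and each array left out. The fits were tested on simulated data. The labels name the arrays of a group biological replicates, and their number limits the precision. Depth in reads has no counterpart here. Of 115 probe values lost to outlier flags, 0 were of the 10 genes.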

Additional observations from a re-analysis of the deposited data

Results flagged for a closer look

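Of 80 groups of 8 arrays, 10 genes in 8 groups, 10 held 1 array whose gap to its nearest neighbour, as a share of the range of the group, exceeded Dixon's critical value for 8 samples. Chance gives about 1 in 20. For Spp1 these were the lowest arrays of seeded grafts at day 90 (replicate 3 at -5.92, share 0.771), BAM only at day 90 (replicate 5 at -5.16, share 0.636) and BAM only at day 180 (replicate 3 at -5.77, share 0.748). Seeded replicate 3 of day 90 was also the lowest in Fn1, at 1.52 (share 0.579, next array 2.98). With BAM only at day 7, replicate 2 was the highest in Tnc at 2.38 (share 0.665) and the lowest in Tnn at -0.34 (share 0.573, next array 1.33). Thbs1 had its highest array apart with BAM only at day 30 (replicate 1 at -2.27, share 0.573, next array -4.93) and with seeded grafts at day 180 (replicate 2 at -5.0, share 0.658, next array -5.34). Sparc with seeded grafts at day 180 had its lowest array apart (replicate 5 at 5.23, share 0.530), and so did Fn1 with seeded grafts at day 7 (replicate 7 at 4.22, share 0.639).

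The graft difference of Sparc changed by 0.89 ± 0.19 SE between day 30 and day 90 (limma, adjusted p = 0.000334) and by -0.69 ± 0.19 between day 90 and day 180 (adjusted p = 0.00526). The mean upper limit of the scanner on the same scale was 5.6 with BAM only at day 30, 4.82 at day 90 and 5.65 at day 180, and 5.49, 5.92 and 5.76 with seeded grafts.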

How the results depend on the processing

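Most counts of the 10 genes held under other settings. Those between day 30 and day 90 (5 with BAM only, 4 with seeded grafts) did not move by more than 1 under any setting run. The 2 calls between grafts at day 90 became 1 with normexp, the percentile over detected probes, the series table, dim probes left out, only the groups compared, the replicate block, the unmoderated model and a fold above 2, and 0 with quantile normalization. The 2 calls between days 7 and 30 with BAM only became 1 with normexp and 1 with quantile normalization, and the 1 call with seeded grafts became 0 with the series table, only the groups compared and a fold above 2. The 1 call between days 90 and 180 with BAM only and the 1 change in graft difference between those days became 0 with quantile normalization, only the groups compared and a fold above 2. The 1 change in graft difference between days 30 and 90 became 0 with quantile normalization and a fold above 2. Spp1 with seeded grafts lost its call between days 30 and 90 with only the groups compared (adjusted p = 0.0122). Causes were not tested. Quantile normalization turned Sparc to 0.0219 between grafts at day 30, -0.038 at day 90 and, for the change in graft difference, -0.0599 and 0.0438. Between grafts at day 180 Thbs1 turned to 0.113 with normexp, and Fn1 to -0.00931 with quantile normalization, -0.000425 with the percentile over detected probes and -0.0101 with the mean of all probes.

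Leaving out each array in turn gave 0 to 1 calls between grafts at day 7, 1 to 2 at day 90, 1 to 2 between days 7 and 30 with BAM only and 0 to 1 with seeded grafts, 3 to 4 between days 30 and 90 with seeded grafts, and 0 to 1 changes in graft difference between days 90 and 180, lost without BAM only replicate 1 or 6 of day 90, seeded replicate 5 of day 180 or BAM only replicate 7 of day 180. Some of the differences between grafts that were not called crossed 0, and the others kept their sign. Tnc ran from -0.417 to 0.102 at day 7, from -0.195 to 0.0215 at day 30 and from -0.0852 to 0.166 at day 90. Thbs1 ran from -0.341 to 0.323 at day 30 and from -0.139 to 0.129 at day 180, and Tnn from -0.0549 to 0.423 at day 30. At day 90 Spp1 ran from -1.46 to 0.547, Postn from -0.0788 to 0.111, Thbs2 from -0.0297 to 0.141 and Ccn1 from -0.435 to 0.221. At day 180 Postn ran from -0.0778 to 0.17, Thbs2 from -0.137 to 0.0322 and Fn1 from -0.0888 to 0.211.

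Replicate numbers were not taken as pairs, since the deviations of same-numbered arrays correlated from -0.28 to 0.33 over 32 pairs, 9 of them above 0.1. With the replicate block Thbs1 at day 90 lost its call (adjusted p = 0.0129) and no other count of calls among the 10 genes moved. Slide and scan date coincide with groups and days and allow no value within a batch. Signal over background limits Thbs1, the late days of Tnn and the 3 lowest arrays of Spp1, and saturation limits Sparc, Lgals3, Sdc1, early Spp1 and Fn1 at day 30.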

Other observations

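The genes whose deviations from the group means were most like those of the remaining genes were read from the same 64 arrays and 11146 candidates. For Tnc these were Cryab, a small heat shock protein of muscle (r = 0.74, and 0.57 without the 2 farthest arrays), and Itgb1, the integrin β1 subunit (r = 0.72, and 0.64). For Postn they were Txnl4b (r = 0.64) and Col16a1, a fibril-associated collagen (r = 0.64), the latter with r = 0.86 over the arrays of days 7 and 30 and 0.24 over those of days 90 and 180. For Thbs1 they were Coq10b (r = 0.67) and Pakap (r = 0.66), and for Tnn Arl4c (r = 0.60) and Srpx2 (r = 0.59). Thbs2 had Prickle1, a planar cell polarity gene, as its second nearest (r = 0.73). Over the mean of the 8 fibroblast genes r was 0.56 for Thbs2 and 0.51 for Sparc.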
